A study of Macaca fascicularis with 11 samples.

Results

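The cells of ISL1 mutant cynomolgus embryos at Day 14 were compared with those at Day 12. The 4 libraries were chosen by their labels and hold 25367 of the 33330 cells in the corrected count matrix of the series, 11860 at Day 12 and 13507 at Day 14, from 4 of 11 libraries. Each cell was placed in 1 of 4 lineages, by the highest mean of ln(1 + 10000 × UMI / total) over a short marker list, and the UMIs (unique molecular identifiers, each standing for 1 captured transcript) were summed per library and per lineage. The lists were CGA, XAGE3, PGF, KRT7, HSD3B1, VGLL1 and INSL4 for trophoblast-like cells, POU5F1, IFITM1, L1TD1, DPPA4 and DNMT3B for epiblast-derived-like cells, COL3A1, COL1A1, COL6A2, HGF, CCDC80, HAND2 and POSTN for ExE-Mech-like cells (extraembryonic mesenchyme), and APOA1, TTR, FOXA2, SOX17, IHH and VTN for endoderm-like cells. These 25 genes placed the cells, so they are not described as changes within a lineage.

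The series profiled 23 embryos of Macaca fascicularis by droplet single-cell RNA sequencing of the 3′ ends of transcripts, in wild-type and ISL1 hypomorphic mutant embryos. The mutants were made by injecting zygotes with SpCas9, named as mRNA in the labels and as protein in the study's methods, and 2 guide RNAs against ISL1, and the resulting embryos are mosaic, with cells that carry different indels. All embryos, mutant and wild-type, had been frozen as blastocysts, thawed, freed of the zona pellucida and grown without a uterus in medium with estradiol, progesterone and N-acetylcysteine. On each day replicate 1 was a pool of 3 mutant embryos and replicate 2 was 1 mutant embryo, so 8 mutant embryos, 4 per day, are described here, and the embryos of the 2 days are different animals.

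ISL1 is a LIM-homeodomain transcription factor known from heart, motor neuron and pancreas development, and in the primate embryo of this stage it marks the amnion, the thin epithelium that forms from the epiblast and lines the amniotic cavity. In the days covered here the epiblast gives rise to the amnion and, at its posterior end, to the primitive streak, where TBXT, MIXL1, MESP1 and CDX genes mark cells that are turning into mesoderm. The extraembryonic mesenchyme fills the space between the embryo and the trophoblast and makes collagen-rich matrix, the trophoblast makes placental hormones, and the extraembryonic endoderm secretes apolipoproteins.

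The 4 mutant libraries held 3882 to 9625 cells and 107653547 to 139693603 UMIs each, and the median cell had 18893 and 21836.5 UMIs at Day 12 and 10916 and 23378 at Day 14. Replicate 1 of Day 14 had the most cells and the fewest UMIs per cell. The median share of mitochondrially encoded UMIs per cell was 6.63% and 6.96% at Day 12 and 6.81% and 4.49% at Day 14. Between 4 and 16 cell barcodes were shared by any pair of these libraries. The authors' correction for free RNA had removed 3.22% to 8.77% of UMIs. Markers outside the rule went with the lineage names. In trophoblast-like cells 7 such trophoblast markers summed to 4319 to 6137 CPM, the UMIs of a gene per 1000000 UMIs of that lineage and library. In epiblast-derived-like cells 7 such epiblast markers summed to 4523 to 10588 CPM. In ExE-Mech-like cells 7 mesenchyme markers summed to 6006 to 12376 CPM, and in endoderm-like cells 7 endoderm markers summed to 2407 to 3300.4 CPM.

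The epiblast-derived-like share of cells was lower and the ExE-Mech-like share higher in both Day 14 libraries than in both Day 12 libraries. Epiblast-derived-like cells made up 11.6% (95% exact binomial interval 10.8 to 12.4) and 4.74% (4.21 to 5.32) of the Day 12 libraries and 3.71% (3.34 to 4.11) and 2.24% (1.80 to 2.76) of the Day 14 libraries. ExE-Mech-like cells made up 13.3% and 23.6% at Day 12 and 26.6% and 27.8% at Day 14. The groups did not overlap for either lineage, and the libraries of Day 12 lay much farther apart than those of Day 14. The difference of the means was -5.19 percentage points for epiblast-derived-like cells and 8.80 points for ExE-Mech-like cells. Both rested on the Day 12 libraries, since they were -1.77 and 3.66 points without replicate 1 of Day 12 and -8.62 and 13.9 points without replicate 2 of Day 12. Each had an exact 2-sided permutation p of 0.33, the smallest that this test can give with 2 libraries against 2, so no share can pass a threshold of 0.05 by it.

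For trophoblast-like cells the Day 12 shares were 72.9% and 71.2%, above the Day 14 shares of 68.4% and 69.6%. The difference was -3.08 points, and its exact permutation p was 0.33 as well. Endoderm-like cells made up 2.24% and 0.462% at Day 12 and 1.23% and 0.335% at Day 14, and these groups overlapped (exact permutation p = 0.667). In cells, the mutant libraries held 975 epiblast-derived-like cells at Day 12 and 444 at Day 14, against 2175 and 3639 ExE-Mech-like cells, 8546 and 9282 trophoblast-like cells and 162 and 131 endoderm-like cells. The binomial intervals cover counting error only, and the difference in the number of pooled embryos between replicates cannot be told apart from other differences between them.

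In the wild-type libraries of the same days the shares spread more widely. Wild-type epiblast-derived-like cells made up 4.62% and 16% at Day 12 and 17.6% and 8.16% at Day 14. Their ExE-Mech-like share at Day 12 was 0 of 325 cells, which allows a share of up to 0.923% (3 cells of the total, against an exact binomial upper bound of 1.13%), and 19.4%, and at Day 14 it was 4.97% and 25.3%. Both wild-type Day 14 libraries lay above both mutant Day 14 libraries in the epiblast-derived-like share. The day groups of the wild type overlapped for both lineages.

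**Figure D1:**
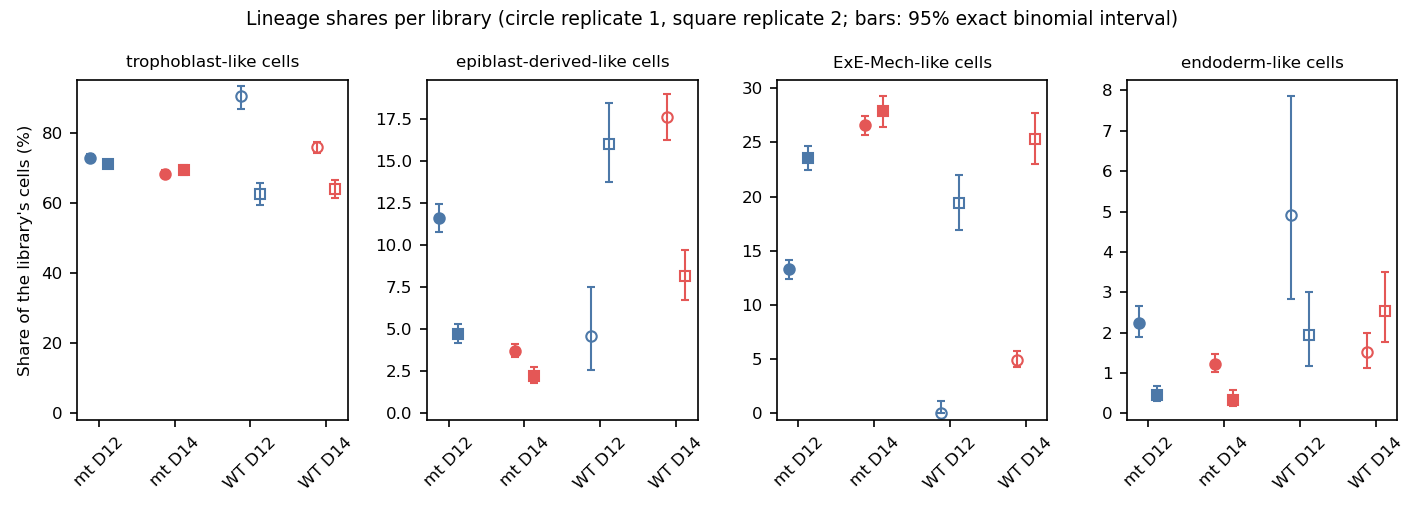
Share of each library's cells in the 4 lineages (vertical axes, %, each panel with its own scale) for mutant (mt, filled) and wild-type (WT, open) libraries at Day 12 (blue, D12) and Day 14 (red, D14), with circles for replicate 1, squares for replicate 2 and bars for 95% exact binomial intervals. The epiblast-derived-like share of mutants is 11.6% and 4.74% at Day 12 and 3.71% and 2.24% at Day 14, and the ExE-Mech-like share lies at 26.6% and 27.8% in both Day 14 mutant libraries.

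Over the whole libraries, 15 of 15491 tested genes (0.0968%) differed between the days at an adjusted p under 0.05 in edgeR's quasi-likelihood test. At Day 14 11 were higher (0.071%) and 4 lower (0.0258%). With the replicate number as a block 10 genes passed (0.0646%), 9 higher (0.0581%) and 1 lower (0.00646%). At an unadjusted p under 0.05 12.5% of the tested genes were higher and 9.7% lower, and DESeq2 called 6.04% higher and 3.94% lower. Here and below a value after ± is the standard error of the fitted log2 fold change, with n = 2 libraries against 2. Only 1019 of the 19367 genes of the matrix could be given a symbol, and the 4 called genes that have one (0.4% of those tested) were all higher. LOX, which encodes lysyl oxidase, the enzyme that cross-links collagen and elastin, had 0.704 and 1.15 CPM at Day 12 and 15.02 and 14.3 CPM at Day 14 (log2 fold change 4.05 ± 0.31, adjusted p = 0.0455). RARRES2, the precursor of the chemoattractant chemerin, had 5.21 and 5.88 CPM at Day 12 and 37.8 and 36.4 CPM at Day 14 (log2 fold change 2.81 ± 0.16, adjusted p = 0.0291). DLK1, a membrane-bound relative of the Notch ligands, had 5.82 and 5 CPM at Day 12 and 32.4 and 33.7 CPM at Day 14 (log2 fold change 2.69 ± 0.16, adjusted p = 0.0299).

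In all 3 genes both Day 14 libraries stood several-fold above both Day 12 libraries, with replicates close together. The zinc-finger gene ZFAT had 21.1 and 24.6 CPM at Day 12 and 123 and 137 CPM at Day 14 (log2 fold change 2.58 ± 0.18, adjusted p = 0.0358). None of the wild-type libraries reached these Day 14 levels. For LOX the wild-type values were 0.725 and 1.26 CPM at Day 12 and 0.291 and 1.66 CPM at Day 14, and for DLK1 they were 0.198 and 0.751 CPM at Day 12 and 0.716 and 1.04 CPM at Day 14. With the replicate number as a block LOX and DLK1 missed the threshold (adjusted p = 0.0661 for each), and RARRES2 and ZFAT kept it. In whole-library sums a change in the number of cells of a type and a change in RNA per cell cannot be told apart. The collagen genes illustrate this. COL1A1 had 52.4 and 179 CPM at Day 12 and 525 and 714 CPM at Day 14 (log2 fold change 2.49 ± 0.62, adjusted p = 0.137), and COL3A1 had 86.7 and 383 CPM at Day 12 and 626 and 894 CPM at Day 14 (log2 fold change 1.77 ± 0.71, adjusted p = 0.235). Both Day 14 libraries were higher for both collagens, and neither gene passed the test. Both genes also place cells as ExE-Mech-like, so their level and that share are not separate observations. Of 18 collagen and collagen-assembly genes tested none passed in edgeR, 10 had an unadjusted p under 0.05, all higher, and DESeq2 called 9. In all, 14 were higher in both Day 14 libraries than in both Day 12 libraries, against 25.8% of all tested genes. These 14 include the placing genes COL1A1, COL3A1 and COL6A2. The count of 15 rested on single libraries, since it was 1 without either Day 12 library, 7 without replicate 2 of Day 14 and 20 without replicate 1 of Day 14.

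In epiblast-derived-like cells, at an adjusted p under 0.05, 77 of 10436 tested genes (0.738%) differed, 71 higher (0.68%) and 6 lower (0.0575%) at Day 14. The replicate number was given by the labels as a batch, though the sources used here do not say whether libraries of the same number on different days were processed together. With it as a block 1273 genes (12.2%) passed, 783 higher (7.5%) and 490 lower (4.7%), with all 77 among them. The block takes out the difference between replicates, so these p-values do not measure the spread between pools or embryos. At an unadjusted p under 0.05 11% of the tested genes were higher and 8.69% lower, and DESeq2 called 2.45% higher and 1.01% lower. These shares over all tested genes are set beside the lists below. Every list member has a symbol, and symbols came from the study's own tables of these embryos. Genes with a symbol were called more often than all tested genes (4.57% against 0.738%). A list count above the share of all tested genes can therefore follow from how genes got a symbol. Of the 77, 42 have a symbol (4.57% of the tested genes with one), and 1 of these, XAGE3, is a trophoblast gene of the placing rule.

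Several values moved beside the days in these cells. Cells whose second-best lineage score was above 0.5 of the best made up 4.58% and 5.05% of epiblast-derived-like cells at Day 12 and 20.7% and 11.5% at Day 14. Replicate 1 of Day 14 had a median of 7772 UMIs per epiblast-derived-like cell against 15362.5 to 19807 in the other 3 libraries. The summed level of the 7 trophoblast rule genes in epiblast-derived-like cells was 399 and 389.7 CPM at Day 12 and 560.2 and 353 CPM at Day 14. That of the 7 ExE-Mech rule genes was 68.6 and 119 CPM and 221 and 89.5 CPM, so neither separated the days. The 7 further ExE-Mech markers, VIM and CTHRC1 among them, summed to 458 and 1004 CPM at Day 12 and 1492 and 1294 CPM at Day 14. Without the mixed-score cells 42 genes passed, of which 41 were among the 77. The part of mixed-score cells in the other calls was not tested. These sums also hold epiblast, amnion and streak cells together, so a change in their mix and a change in RNA per cell cannot be told apart. Leaving out a library gave 131 and 443 calls without replicate 1 and 2 of Day 12, 82 without replicate 1 of Day 14 and 13 without replicate 2 of Day 14.

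ISL1 itself did not pass the test in epiblast-derived-like cells. It had 53 and 260 UMIs at Day 12 and 158 and 165 UMIs at Day 14, which are 4.48 and 52.8 CPM at Day 12 and 46.2 and 66.5 CPM at Day 14. Replicate 1 of Day 12 was low and the other 3 libraries were close together, so the groups overlapped (log2 fold change 1.14 ± 0.89, adjusted p = 0.503, adjusted p = 0.0166 with the replicate block). In wild-type epiblast-derived-like cells the values were 1.55 and 29.2 CPM at Day 12 and 7.63 and 48.1 CPM at Day 14. Replicate 1 of wild-type Day 12 held only 15 epiblast-derived-like cells, and its ISL1 value was 3 UMIs. Its values in these cells, here and below, are uncertain. After each cell was thinned to 3000 UMIs, 1.37% and 12.3% of epiblast-derived-like cells had an ISL1 UMI at Day 12 and 11.7% and 19.3% at Day 14, against 0.219% to 0.441% of trophoblast-like cells. Thinning left out 36 shallower epiblast-derived-like cells of replicate 1 of Day 14. Without thinning the shares were 5.30%, 31.8%, 21.0% and 44.8%, against 1.31% to 3.00% in trophoblast-like cells. The thinned shares in endoderm-like cells were 2.34% and 2.80% at Day 12 and 1.18% and 4.84% at Day 14. In replicate 1 of Day 12 this was above the epiblast-derived-like share. In ExE-Mech-like cells they were 0.100% to 1.02%. Over whole libraries ISL1 had 180 and 395 UMIs at Day 12 and 370 and 283 UMIs at Day 14, so part of it lay outside epiblast-derived-like cells. The level of a 3′ tag does not check the edit, since a deletion at 1 site of a gene need not remove the 3′ end of its transcript.

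Of 18 amnion list members tested in epiblast-derived-like cells 4 rose and none fell. In all, 11 were higher in both Day 14 libraries than in both Day 12 libraries, against 22.5% of all tested genes. The median log2 fold change of the list was 1.42, beside 0.01 over all tested genes. With the replicate block 14 members passed, all higher. The list draws on markers the study took from its own embryos, so it is no independent evidence. In mutant trophoblast-like cells the members summed to 4690 and 4474 CPM at Day 12 and 3971 and 4535 CPM at Day 14, so the sum is not particular to amnion. In epiblast-derived-like cells the members together had 1481 and 3779 CPM at Day 12 and 5150.3 and 7164 CPM at Day 14, against 815 and 2169 CPM and 2405 and 2279 CPM in the wild type. Secretory genes of the endoderm moved beside them in the same cells, with 1679 and 2740.4 CPM at Day 12 and 4132 and 4153 CPM at Day 14. None of 8 such genes passed in edgeR, 5 were higher at an unadjusted p under 0.05, 4 with the block, and the median was 1.18. The 6 endoderm genes of the placing rule summed to 21.0 and 17.5 CPM at Day 12 and 51.1 and 15.7 CPM at Day 14. The part of endoderm RNA in the amnion values was not tested.

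VTCN1, an immune-checkpoint ligand found in amnion and trophoblast, had 2.11 and 1.02 CPM at Day 12 and 17.5 and 17.3 CPM at Day 14 (log2 fold change 3.42 ± 0.42, adjusted p = 0.0188). TSPAN2, a tetraspanin, had 20.7 and 24.98 CPM at Day 12 and 106 and 94.7 CPM at Day 14 (log2 fold change 2.22 ± 0.22, adjusted p = 0.00988). LYPD1, a small GPI-anchored protein, had 9.54 and 13 CPM at Day 12 and 53.2 and 49.99 CPM at Day 14 (log2 fold change 2.29 ± 0.26, adjusted p = 0.0155). In all 3 genes the days stood apart, and the 2 replicates of a day lay closer to each other than to the other day. The fourth was ANKRD1, a nuclear cofactor induced by mechanical stretch, with 7.6 and 5.28 CPM at Day 12 and 25.7 and 35.1 CPM at Day 14 (log2 fold change 2.28 ± 0.34, adjusted p = 0.0388). TSPAN2 and ANKRD1 missed the threshold without the mixed-score cells (adjusted p = 0.0637 and 0.11), and VTCN1 and LYPD1 kept it. After thinning, 0.656% and 0.282% of epiblast-derived-like cells had a VTCN1 UMI at Day 12 and 4.20% and 9.34% at Day 14, against at most 0.152% of trophoblast-like cells. Among endoderm-like cells replicate 2 of Day 12 had 1.92%, from 3 of 27 cells, and the other mutant libraries had none. The unthinned shares of epiblast-derived-like cells were 2.87% and 1.81% at Day 12 and 12.0% and 31.0% at Day 14.

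Other amnion members had higher values without passing the unblocked test. KRT19, an epithelial keratin, had 359 and 819 CPM at Day 12 and 1706 and 2346 CPM at Day 14 (log2 fold change 1.89 ± 0.42, adjusted p = 0.0913, 0.000372 with the block). SPNS2, a sphingosine-1-phosphate transporter, had 1.44 and 10.97 CPM at Day 12 and 69.3 and 47.98 CPM at Day 14 (log2 fold change 3.48 ± 0.74, adjusted p = 0.085, 0.00031 with the block). GABRP, a GABA-A receptor subunit, had 0.591 and 4.67 CPM at Day 12 and 9.94 and 20.6 CPM at Day 14 (log2 fold change 2.86 ± 0.84, adjusted p = 0.144, 0.000876 with the block). In each the Day 12 replicates differed from each other more, in proportion, than the Day 14 replicates did, replicate 1 of Day 12 being the lowest library.

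Of 19 primitive streak and early mesoderm genes tested none passed in edgeR, where 7 lower and 2 higher had an unadjusted p under 0.05 and DESeq2 called 4 lower and 1 higher. In all, 12 were lower in both Day 14 libraries, against 31% of all tested genes, and GSC, RSPO3 and CYP26A1 were higher in both, against 22.5%. The list's median log2 fold change was -0.94. With the replicate block 6 members passed as lower and 1 as higher. CDX1, a posterior homeobox gene, had 65.4 and 191 CPM at Day 12 and 15.8 and 2.02 CPM at Day 14 (log2 fold change -3.71 ± 0.74, adjusted p = 0.0741, 0.000938 with the block). CDX2, its paralog, had 84.1 and 189 CPM at Day 12 and 46.5 and 20.6 CPM at Day 14 (log2 fold change -1.95 ± 0.45, adjusted p = 0.0951, 0.00375 with the block), and EVX1, a homeobox gene of the streak, had 23.6 and 41.4 CPM at Day 12 and 10.5 and 6.45 CPM at Day 14 (log2 fold change -1.83 ± 0.36, adjusted p = 0.0728, 0.00276 with the block). All 3 had their lowest value in replicate 2 of Day 14 and their highest in replicate 2 of Day 12.

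WNT5B, a secreted WNT ligand of the streak, had 54.8 and 115 CPM at Day 12 and 25.7 and 16.9 CPM at Day 14 (log2 fold change -1.90 ± 0.37, adjusted p = 0.0728, 0.00121 with the block). The member that was higher with the block was CYP26A1, which degrades retinoic acid, with 11.8 and 39.6 CPM at Day 12 and 67.8 and 121 CPM at Day 14 (log2 fold change 2.03 ± 0.56, adjusted p = 0.133, 3.12e-05 with the block). MIXL1 and MESP1, which mark nascent mesoderm, did not separate the days. MIXL1 had 22.1 and 7.11 CPM at Day 12 and 39.4 and 2.82 CPM at Day 14 (log2 fold change 0.53 ± 0.87, adjusted p = 0.764), and MESP1 had 25.2 and 2.64 CPM at Day 12 and 9.64 and 4.84 CPM at Day 14 (log2 fold change -0.94 ± 0.88, adjusted p = 0.575). The values of the days overlapped for both. MIXL1 is not particular to epiblast-derived-like cells, where 3.68% and 2.33% had a UMI at Day 12 after thinning and 3.65% and 1.16% at Day 14. In endoderm-like cells, 13 to 135 per library, these shares were 18.2% and 17.9% at Day 12 and 6.20% and 9.94% at Day 14. In wild-type epiblast-derived-like cells MIXL1 had 4.64 and 117 CPM at Day 12 and 298 and 48.1 CPM at Day 14 and MESP1 had 0.515 and 115 CPM at Day 12 and 319 and 48.4 CPM at Day 14. The low wild-type Day 12 values came from replicate 1, which held 15 such cells. TBXT had 5 and 2 UMIs at Day 12 and 0 and 0 UMIs at Day 14 in mutant epiblast-derived-like cells, where a count of 0 allows up to 0.877 and 1.21 CPM, against 0 and 8 UMIs and 161 and 5 UMIs in the wild type.

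Of 7 HOX genes, which pattern the posterior body, none passed in edgeR, 2 had an unadjusted p under 0.05 and DESeq2 called 1, all lower. With the block 3 were lower and none higher, 3 were lower in both Day 14 libraries, near the 31% of all genes, and the median log2 fold change was -1.33. ID3, a target of BMP signalling, had 702 and 822 CPM at Day 12 and 325 and 346 CPM at Day 14 (log2 fold change -1.09 ± 0.23, adjusted p = 0.0806, 0.00542 with the block). Of 9 BMP pathway genes none passed in edgeR, 2 were lower at an unadjusted p under 0.05 and with the block, and DESeq2 called 1. These 2 of 9 stand beside the 8.69% of all tested genes that were lower at that p. Of 11 WNT pathway genes APCDD1, a membrane-bound WNT inhibitor, rose (8.19 and 6.5 CPM at Day 12 and 43.8 and 31.04 CPM at Day 14, log2 fold change 2.39 ± 0.28, adjusted p = 0.0166), and 4 were higher and 1 lower with the block.

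**Figure D2:**
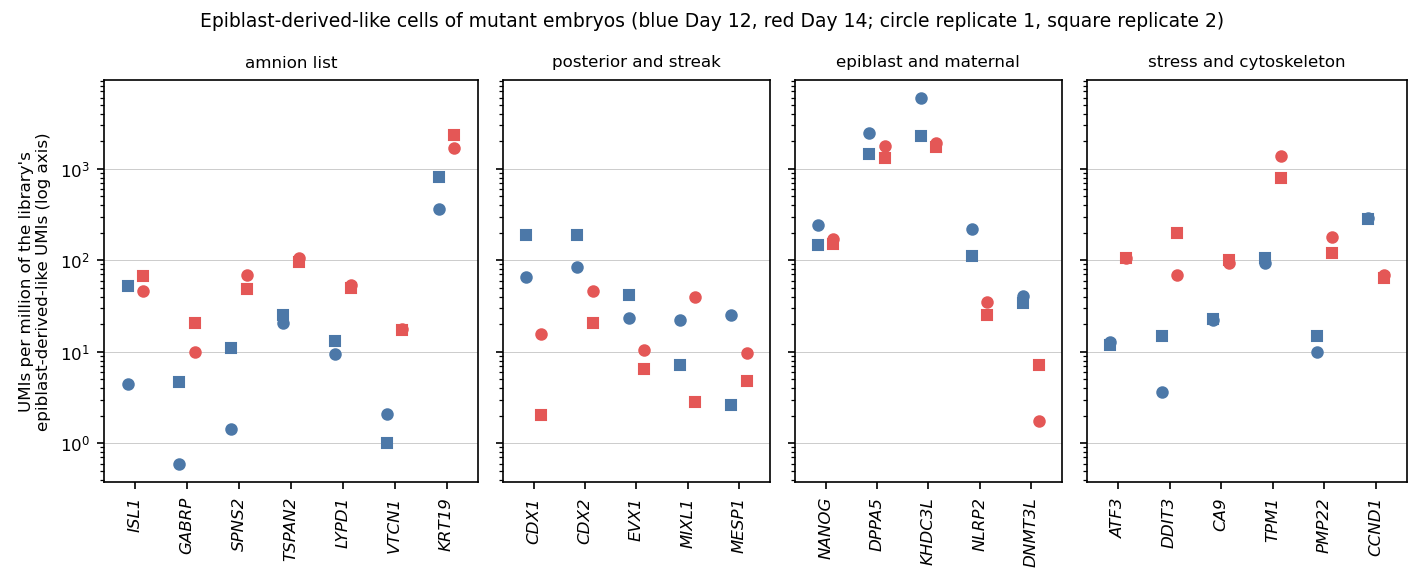
Level of named genes in epiblast-derived-like cells of the 4 mutant libraries (vertical axis, CPM within the lineage and library, log scale) at Day 12 (blue) and Day 14 (red), with circles for replicate 1 and squares for replicate 2. VTCN1, TSPAN2, LYPD1, ATF3, CA9, TPM1 and PMP22 are higher and CCND1 and NLRP2 lower in both Day 14 libraries, while ISL1, MIXL1 and MESP1 overlap between the days.

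Of 10 core pluripotency genes tested outside the placing rule none passed in edgeR, with or without the block, none had an unadjusted p under 0.05 and DESeq2 called none. The median log2 fold change was -0.27. NANOG had 240.1 and 149 CPM at Day 12 and 169.8 and 152 CPM at Day 14 (log2 fold change -0.20 ± 0.27, adjusted p = 0.712), and DPPA5 had 2429 and 1449 CPM at Day 12 and 1782 and 1299 CPM at Day 14 (log2 fold change -0.27 ± 0.32, adjusted p = 0.667). The days overlapped for both genes. The cells had been placed by other genes of this kind, among them POU5F1, L1TD1 and DNMT3B. The list of naive and maternal-effect genes had a median of -0.99, and 1 of its 10 members passed and was lower. This was NLRP2, a maternal-effect gene of the oocyte's subcortical complex, with 218 and 110.5 CPM at Day 12 and 35.4 and 25 CPM at Day 14 (log2 fold change -2.38 ± 0.37, adjusted p = 0.0444), which missed the threshold without the mixed-score cells (adjusted p = 0.0555).

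With the block 4 members passed as lower and 3 as higher. DNMT3L, the cofactor of de novo DNA methyltransferases, had 41.2 and 34.3 CPM at Day 12 and 1.75 and 7.26 CPM at Day 14 (log2 fold change -3.06 ± 0.55, adjusted p = 0.0635, 0.000414 with the block), and OOEP had 82.8 and 23.1 CPM at Day 12 and 9.94 and 11.7 CPM at Day 14 (log2 fold change -2.25 ± 0.60, adjusted p = 0.124, 0.00505 with the block). KHDC3L, the most abundant member, had 5888 and 2305 CPM at Day 12 and 1923 and 1712 CPM at Day 14 (log2 fold change -1.11 ± 0.45, adjusted p = 0.234). Both Day 14 libraries were the lowest for all 3, and for OOEP and KHDC3L replicate 1 of Day 12 stood far above the rest. After thinning, 96.4% and 79.1% of epiblast-derived-like cells had a KHDC3L UMI at Day 12 and 56.3% and 36.5% at Day 14, against 0.147% to 1.78% of trophoblast-like cells. In endoderm-like cells the thinned shares were 14.0% and 9.88% at Day 12 and 8.77% and 31.4% at Day 14. Replicate 2 held only 27 and 13 endoderm-like cells on these days. The unthinned shares of epiblast-derived-like cells were 97.9%, 95.3%, 61.3% and 49.4%. For DPPA5 the thinned shares were 95.3% and 76.9% at Day 12 and 62.3% and 39.9% at Day 14, against at most 1.48% of trophoblast-like cells. In endoderm-like cells they were 28.4% and 18.2% at Day 12 and 11.6% and 15.7% at Day 14. The unthinned DPPA5 shares of epiblast-derived-like cells were 98.3%, 90.6%, 65.3% and 54.0%. These shares of cells with a UMI were not tested.

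The largest rises in epiblast-derived-like cells included genes of the matrix and the cytoskeleton. They were named by a rule that took the 10 largest changes of each direction among called genes with a symbol, at least 10 CPM on the higher day and no overlap. LOX had 2 and 5 UMIs at Day 12 and 294 and 61 UMIs at Day 14, or 0.169 and 1.02 CPM at Day 12 and 85.9 and 24.6 CPM at Day 14 (log2 fold change 6.93 ± 0.80, adjusted p = 0.0166). TPM1, a tropomyosin of actin filaments, had 93.8 and 106 CPM at Day 12 and 1390.4 and 795 CPM at Day 14 (log2 fold change 3.51 ± 0.29, adjusted p = 0.00725). SPON1, a secreted matrix glycoprotein, had 0.338 and 1.22 CPM at Day 12 and 21.3 and 7.66 CPM at Day 14 (log2 fold change 4.52 ± 0.68, adjusted p = 0.0388).

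In these 3 genes replicate 1 was the higher of the Day 14 libraries and both lay far above Day 12. MIA, a small secreted matrix-binding protein, had 1.27 and 1.22 CPM at Day 12 and 35.1 and 8.87 CPM at Day 14 (log2 fold change 4.17 ± 0.63, adjusted p = 0.0388). IGFBP5, which binds insulin-like growth factors, had 11.5 and 24.6 CPM at Day 12 and 250.4 and 219 CPM at Day 14 (log2 fold change 3.82 ± 0.36, adjusted p = 0.00988). PMP22, a tetraspan membrane protein of myelin and epithelia, had 10.05 and 14.8 CPM at Day 12 and 177 and 119.7 CPM at Day 14 (log2 fold change 3.67 ± 0.28, adjusted p = 0.00539). Each was lowest in the Day 12 libraries, and MIA differed most between the Day 14 replicates. SLC47A1, an exporter of organic cations, had 1.01 and 2.23 CPM at Day 12 and 27.5 and 20.97 CPM at Day 14 (log2 fold change 4.10 ± 0.41, adjusted p = 0.00988). PLD5, a phospholipase D family member, had 0.0844 and 0.406 CPM at Day 12 and 9.06 and 12.1 CPM at Day 14 (log2 fold change 5.74 ± 0.66, adjusted p = 0.0166). PLD5 rests on 1 and 2 UMIs at Day 12 and 31 and 30 UMIs at Day 14. Without the mixed-score cells PLD5 and SPON1 missed the threshold (adjusted p = 0.0501 and 0.0693), and the other 7 genes given here from that rule, VTCN1 among them, kept it.

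In the same cells 1 of 13 collagen and assembly genes and 2 of 14 other matrix genes rose and none fell, with medians of 0.95 and 1.00. The matrix genes were HAPLN1, a hyaluronan link protein, and ITIH5, which binds hyaluronan. The collagen list member was CTHRC1, a secreted protein with a collagen-like repeat, with 12.1 and 25.4 CPM at Day 12 and 202 and 136 CPM at Day 14 (log2 fold change 3.28 ± 0.37, adjusted p = 0.0155). VIM, the intermediate filament of mesenchymal cells, had 114 and 327 CPM at Day 12 and 851 and 634 CPM at Day 14 (log2 fold change 1.84 ± 0.44, adjusted p = 0.102, 0.00137 with the block). The days did not overlap for either gene. On the lower side the rule named only NLRP2 and CCND1. CCND1, the D-type cyclin that drives cells out of G1, had 287 and 279.6 CPM at Day 12 and 69.3 and 63.3 CPM at Day 14 (log2 fold change -2.02 ± 0.20, adjusted p = 0.00988), with both replicates of each day close together. None of 12 S-phase and division genes passed in edgeR, 6 had an unadjusted p under 0.05, DESeq2 called 3 and the block 4, all lower. In both Day 14 libraries 9 were lower, against 31% of all tested genes, and the median was -0.60.

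Of 9 genes on the stress list 1 rose in epiblast-derived-like cells. ATF3, a transcription factor of the integrated stress response, had 12.7 and 11.98 CPM at Day 12 and 105 and 106 CPM at Day 14 (log2 fold change 3.18 ± 0.24, adjusted p = 0.00504). DDIT3, which encodes CHOP, a mediator of cell death in that response, had 3.63 and 14.8 CPM at Day 12 and 68.4 and 198 CPM at Day 14 and did not pass the unblocked test (log2 fold change 4.08 ± 0.76, adjusted p = 0.0667, 1.31e-07 with the block). Both Day 14 libraries were several-fold above Day 12, with replicates close for ATF3 and apart for DDIT3. With the block 5 members were higher and 1 lower, and the median was 1.31, while the summed level of the list was 5787 and 5139 CPM at Day 12 and 5099 and 5473 CPM at Day 14, where the days overlapped. The following genes known to be induced by low oxygen or stretch were called, and were picked out after their values were seen. CA9, a carbonic anhydrase, had 22.3 and 22.9 CPM at Day 12 and 94.1 and 102 CPM at Day 14 (log2 fold change 2.20 ± 0.23, adjusted p = 0.0125). EPO, erythropoietin, had 1.1 and 1.02 CPM at Day 12 and 9.94 and 8.87 CPM at Day 14 (log2 fold change 3.18 ± 0.42, adjusted p = 0.0276).

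ANKRD37 had 25.6 and 55.2 CPM at Day 12 and 172 and 208 CPM at Day 14 (log2 fold change 2.35 ± 0.37, adjusted p = 0.0474), and NPPB, a natriuretic peptide, had 29.1 and 40.2 CPM at Day 12 and 269.7 and 170.1 CPM at Day 14 (log2 fold change 2.74 ± 0.27, adjusted p = 0.00988). In all 4 the days stood apart, and EPO and ANKRD37 missed the threshold without the mixed-score cells (adjusted p = 0.145 and 0.0555). Of 10 glycolysis and hypoxia genes none passed in edgeR, 3 were higher at an unadjusted p under 0.05 and DESeq2 called none. With the block 4 were higher, and the median was 0.74. LDHB and ENO3 of this list were lower in both Day 14 libraries. The mitochondrially encoded transcripts summed to 66369 and 47676 CPM at Day 12 and 37987 and 14708 CPM at Day 14 in epiblast-derived-like cells. None of 13 passed in edgeR, 8 were lower and 1 higher at an unadjusted p under 0.05, and DESeq2 called 5 lower. With the block 9 were lower and 1 higher, and the median was -1.13. Replicate 2 of Day 14 was the lowest.

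The 39 called genes outside the placing rule that have a symbol and were higher at Day 14 in epiblast-derived-like cells were also looked at in the other lineages. Of those tested, 27 of 36 were higher in both Day 14 libraries in ExE-Mech-like cells, against 25.8% of all genes, and 20 of 38 in trophoblast-like cells, against 25.1%. In endoderm-like cells the count was 5 of 18, against 16.4%. The genes were chosen as higher at Day 14 in the same 4 libraries, and the lineages of a library share its embryos and handling. Counts above the share of all genes can follow from that choice and were not tested.

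In ExE-Mech-like cells the unblocked test called 1 of 12697 genes (0.00788%), lower at Day 14 and without a symbol. With the replicate block 1270 genes (10%) passed, 854 higher (6.73%) and 416 lower (3.28%). At an unadjusted p under 0.05 12.1% of the tested genes were higher and 7.03% lower, and DESeq2 called 4.95% higher and 1.74% lower. The values below are therefore given with both tests. Without mixed-score cells 8 genes passed, and leaving out a library gave 45 and 65 calls without replicate 1 and 2 of Day 12 and 11 and 15 without replicate 1 and 2 of Day 14.

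Trophoblast markers moved beside the days in these cells. The 7 trophoblast rule genes summed to 254 and 265 CPM at Day 12 and 593 and 379 CPM at Day 14 in ExE-Mech-like cells. The 7 further trophoblast markers, HSD17B2 among them, summed to 324 and 227 CPM at Day 12 and 649 and 341 CPM at Day 14, and 4 of the 7 were higher in both Day 14 libraries, against 25.8% of all tested genes. These were MFAP2, S100P, PECAM1 and HSD17B2. The lists overlap, since MFAP2 is also counted below as a matrix gene and PECAM1 as an invasive-trophoblast and an endothelial gene. The cytotrophoblast list summed to 712 and 741 CPM at Day 12 and 1455 and 1599.7 CPM at Day 14. That sum holds 3 genes of the placing rule, and it shares PAGE4, GATA2 and GATA3 with the further markers. Of its 7 tested members outside the rule only CDKN1C was higher in both Day 14 libraries, against 25.8% of all tested genes. Their median was 0.43. Of 7 invasive-trophoblast genes none passed in edgeR, 5 were higher in both Day 14 libraries, and the median was 1.42. The part of trophoblast RNA in the values below was not tested.

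The genes nearest to the threshold, picked out after their values were seen, were mostly higher. TPM1 had 297 and 351 CPM at Day 12 and 4141 and 4825 CPM at Day 14 (log2 fold change 3.88 ± 0.26, adjusted p = 0.0652, 0.00258 with the block). DLK1 had 1.14 and 2.27 CPM at Day 12 and 98.99 and 109.9 CPM at Day 14 (log2 fold change 5.97 ± 0.41, adjusted p = 0.0652, 0.00301 with the block). MT3, a metallothionein, had 43.2 and 27.9 CPM at Day 12 and 491 and 322 CPM at Day 14 (log2 fold change 3.60 ± 0.32, adjusted p = 0.0667, 0.00301 with the block). Both Day 14 libraries lay far above both Day 12 libraries in all 3, beyond the spread of the replicates. After thinning, 39.5% and 40.0% of ExE-Mech-like cells had a TPM1 UMI at Day 12 and 93.1% and 99.1% at Day 14. Without thinning 75.2%, 71.4%, 96.7% and 100% did. In trophoblast-like cells, which also express TPM1, the thinned share was 78.7% to 85.2%. In endoderm-like cells it went the other way, with 85.8% and 90.9% at Day 12 and 61.2% and 70.2% at Day 14. Replicate 2 held only 27 and 13 endoderm-like cells.

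HSD17B2, one of the trophoblast markers, which inactivates estradiol, had 2.67 and 3.66 CPM at Day 12 and 41.2 and 26.2 CPM at Day 14 (log2 fold change 3.47 ± 0.32, adjusted p = 0.0667, 0.00828 with the block). PDPN, podoplanin, had 16.7 and 14.4 CPM at Day 12 and 64.4 and 80.3 CPM at Day 14 (log2 fold change 2.32 ± 0.24, adjusted p = 0.0667, 0.00866 with the block). ALDH1A2, which makes retinoic acid, was the lower gene of this set, with 43.2 and 23.5 CPM at Day 12 and 4.47 and 3.75 CPM at Day 14 (log2 fold change -2.92 ± 0.34, adjusted p = 0.071, 0.00738 with the block). None of these 3 genes overlapped between the days.

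**Figure D3:**
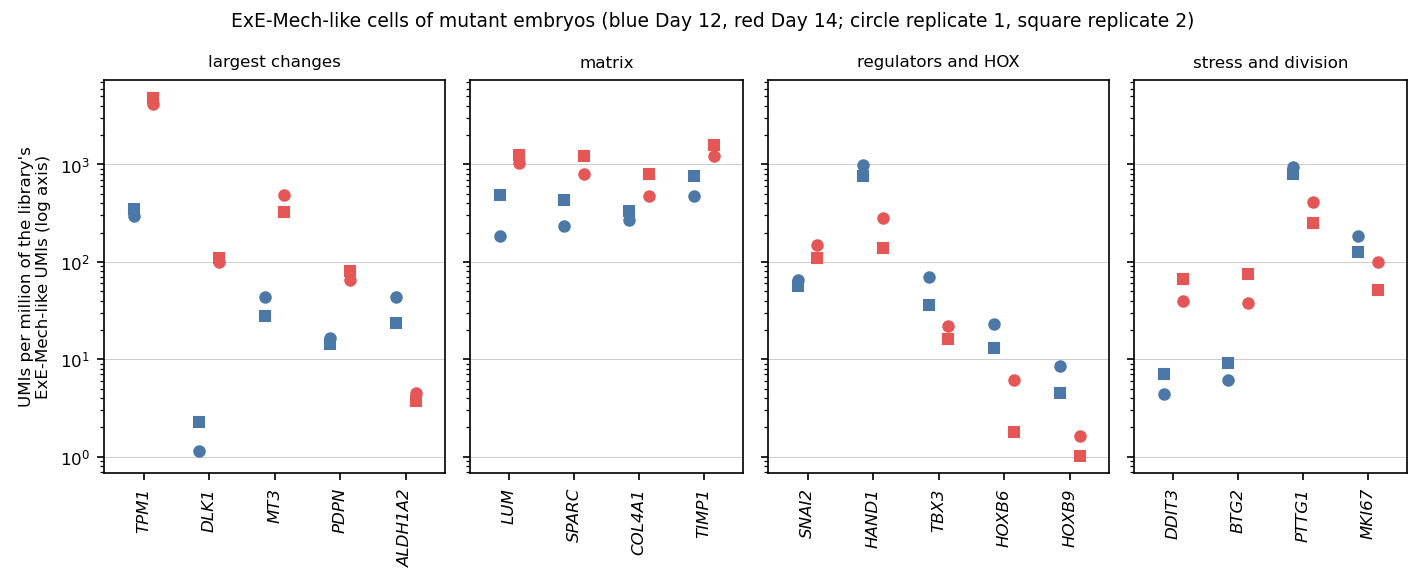
Level of named genes in ExE-Mech-like cells of the 4 mutant libraries (vertical axis, CPM within the lineage and library, log scale) at Day 12 (blue) and Day 14 (red), with circles for replicate 1 and squares for replicate 2. TPM1 lies at 297 and 351 CPM at Day 12 and 4141 and 4825 CPM at Day 14, and HAND1 and the HOXB genes are lower in both Day 14 libraries.

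Matrix genes were next looked at in ExE-Mech-like cells outside the placing rule. None of 15 collagen and assembly genes passed in edgeR, 4 had an unadjusted p under 0.05, DESeq2 called 3 and the block 5, all higher. In both Day 14 libraries 9 were higher, against 25.8% of all tested genes, and PCOLCE2 and SERPINH1 were lower. The median was 0.56, beside 0.04 over all tested genes. None of 15 other matrix genes passed, 3 higher and 1 lower had an unadjusted p under 0.05, DESeq2 called 3 and the block 7, all higher. In both Day 14 libraries 6 were higher, and FBN2 and SBSPON were lower. The median was 0.72. LUM, the proteoglycan lumican, had 186 and 482 CPM at Day 12 and 1037 and 1255 CPM at Day 14 (log2 fold change 1.86 ± 0.50, adjusted p = 0.167, 0.0194 with the block). SPARC, a collagen-binding glycoprotein, had 231 and 428 CPM at Day 12 and 789.9 and 1221 CPM at Day 14 (log2 fold change 1.70 ± 0.42, adjusted p = 0.156, 0.00728 with the block). COL4A1, of the basement membrane, had 269 and 331 CPM at Day 12 and 475 and 789 CPM at Day 14 (log2 fold change 1.17 ± 0.34, adjusted p = 0.184, 0.0255 with the block).

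For all 3 replicate 1 of Day 12 was the lowest library and replicate 2 of Day 14 the highest. TIMP1, a protease inhibitor, had 474 and 767 CPM at Day 12 and 1217 and 1589.6 CPM at Day 14 (log2 fold change 1.27 ± 0.34, adjusted p = 0.166, 0.0117 with the block).

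Of 15 regulators of the mesenchyme tested none passed in edgeR, 1 higher and 4 lower had an unadjusted p under 0.05, and DESeq2 called 1 higher and 3 lower. With the block 2 were higher and 3 lower. In all, 10 were lower in both Day 14 libraries against 31.1% of all tested genes, and the median was -0.21. HAND1, a bHLH factor of extraembryonic mesoderm, had 998 and 757 CPM at Day 12 and 281 and 138 CPM at Day 14 (log2 fold change -1.99 ± 0.36, adjusted p = 0.116, 0.00866 with the block). TBX3, a T-box repressor, had 69.9 and 35.8 CPM at Day 12 and 22.03 and 16.3 CPM at Day 14 (log2 fold change -1.37 ± 0.35, adjusted p = 0.159, 0.0263 with the block). SNAI2, a repressor of epithelial genes, had 65.3 and 55.98 CPM at Day 12 and 148 and 109.9 CPM at Day 14 (log2 fold change 1.17 ± 0.21, adjusted p = 0.116, 0.0191 with the block).

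HAND1 and TBX3 were lower and SNAI2 higher in both Day 14 libraries. PITX1, an abundant homeobox regulator, had 1164 and 762 CPM at Day 12 and 742 and 615 CPM at Day 14 (log2 fold change -0.42 ± 0.25, adjusted p = 0.395, 0.152 with the block). The HOX list had a median of -1.63. None of 8 passed in edgeR, 6 had an unadjusted p under 0.05, and DESeq2 and the block called 5 each, all lower. HOXB6 had 22.9 and 12.9 CPM at Day 12 and 6.16 and 1.78 CPM at Day 14 (log2 fold change -2.09 ± 0.59, adjusted p = 0.179, 0.0169 with the block), and HOXB9 had 8.58 and 4.5 CPM at Day 12 and 1.62 and 1.03 CPM at Day 14 (log2 fold change -2.20 ± 0.44, adjusted p = 0.125, 0.0209 with the block). Both were lowest in replicate 2 of Day 14, the library of 1 embryo.

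Stress and division genes did not pass the unblocked test in ExE-Mech-like cells. DDIT3 had 4.39 and 7.08 CPM at Day 12 and 39.5 and 66.4 CPM at Day 14 (log2 fold change 3.29 ± 0.42, adjusted p = 0.082, 0.00387 with the block), and BTG2, an anti-proliferative gene, had 6.17 and 9.18 CPM at Day 12 and 38.2 and 75.8 CPM at Day 14 (log2 fold change 2.98 ± 0.46, adjusted p = 0.0996, 0.00526 with the block). Of 9 stress genes none passed in edgeR, 5 were higher at an unadjusted p under 0.05 and by DESeq2. With the block 5 were higher and 1 lower, and the median was 1.22. HSP90B1, HSPD1 and SDF2L1, which help proteins fold, were lower in both Day 14 libraries. The summed level of the list was 6685 and 6644 CPM at Day 12 and 5784 and 5429.6 CPM at Day 14, so the sum and the median of the list differ in sign. The 4 metallothioneins, which bind zinc and copper, had a median of 3.14, with none passing in edgeR, 3 higher at an unadjusted p under 0.05 and with the block, and 2 by DESeq2. MT1B had 14.8 and 7.35 CPM at Day 12 and 91 and 41.9 CPM at Day 14 (log2 fold change 2.67 ± 0.48, adjusted p = 0.116, 0.0047 with the block).

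PTTG1, the securin of mitosis, had 942 and 806 CPM at Day 12 and 407 and 252 CPM at Day 14 (log2 fold change -1.33 ± 0.26, adjusted p = 0.125, 0.0148 with the block), and MKI67, a marker of cycling cells, had 183 and 127 CPM at Day 12 and 100.3 and 50.9 CPM at Day 14 (log2 fold change -0.96 ± 0.35, adjusted p = 0.242, 0.0316 with the block). Of 12 S-phase and division genes none passed in edgeR, 4 were lower at an unadjusted p under 0.05, 1 by DESeq2 and 2 with the block, against 7.03%, 1.74% and 3.28% of all tested genes. In both Day 14 libraries 9 were lower, against 31.1%. Mitochondrially encoded transcripts in ExE-Mech-like cells summed to 67674 and 70213 CPM at Day 12 and 50962 and 34364 CPM at Day 14. None of 13 passed in edgeR, 5 were lower at an unadjusted p under 0.05, 2 by DESeq2 and 3 with the block. In trophoblast-like cells these transcripts summed to 65219 and 70123 CPM at Day 12 and 77490 and 69116 CPM at Day 14, where the days overlapped. The authors had filtered cells on the mitochondrial share, and the part of that filter in these sums was not tested.

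In trophoblast-like cells, which made up most of every library, 32 of 14105 genes (0.227%) passed, 25 higher (0.177%) and 7 lower (0.0496%) at Day 14. With the block 22 passed (0.156%), 15 higher (0.106%) and 7 lower (0.0496%), and 12 of the 22 were among the 32. The 4 with a symbol (0.438% of those tested) were all higher. CA12, a membrane carbonic anhydrase, had 2.09 and 2.93 CPM at Day 12 and 20.1 and 18.4 CPM at Day 14 (log2 fold change 3.00 ± 0.23, adjusted p = 0.0407). LOC102121218 had 2.65 and 2.45 CPM at Day 12 and 18.8 and 18.1 CPM at Day 14 (log2 fold change 2.92 ± 0.16, adjusted p = 0.0159), and ZFAT had 25.8 and 31.3 CPM at Day 12 and 162 and 174 CPM at Day 14 (log2 fold change 2.63 ± 0.18, adjusted p = 0.0282). In each the replicates agreed closely and the days stood several-fold apart.

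FOS, an immediate-early gene of the AP-1 complex, had 91.1 and 84.5 CPM at Day 12 and 305 and 287 CPM at Day 14 (log2 fold change 1.82 ± 0.12, adjusted p = 0.0251). All 4 kept their call with the replicate block and without mixed-score cells. In wild-type trophoblast-like cells LOC102121218 had 36.6 and 31.02 CPM at Day 12 and 28.4 and 31.8 CPM at Day 14. The mutant libraries of both days lay below these values, and those of Day 12 were the lowest. ZFAT in wild-type trophoblast-like cells had 29.8 and 31.1 CPM at Day 12 and 18.3 and 37.8 CPM at Day 14. The count of 32 was 0 without either Day 12 library, 378 without replicate 1 of Day 14 and 112 without replicate 2 of Day 14.

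Among the genes listed for trophoblast subtypes none passed. PAGE4, a cytotrophoblast gene, had 611 and 886 CPM at Day 12 and 1575 and 1670.1 CPM at Day 14 (log2 fold change 1.18 ± 0.22, adjusted p = 0.0866). LAIR2 and ISM2, which mark invading extravillous cells, had 942 and 1031 CPM at Day 12 and 1421 and 1599 CPM at Day 14 (log2 fold change 0.69 ± 0.15, adjusted p = 0.107) and 480.4 and 599 CPM at Day 12 and 1005 and 790.1 CPM at Day 14 (log2 fold change 0.79 ± 0.17, adjusted p = 0.104). All 3 were higher in both Day 14 libraries without passing. PPARG, a nuclear receptor of trophoblast differentiation, had 216 and 204 CPM at Day 12 and 145 and 128 CPM at Day 14 (log2 fold change -0.55 ± 0.11, adjusted p = 0.0955). AHRR, the repressor of the aryl hydrocarbon receptor, had 559.7 and 591 CPM at Day 12 and 326 and 349.8 CPM at Day 14 (log2 fold change -0.70 ± 0.14, adjusted p = 0.0893), and CCNE1, cyclin E1, had 1699.8 and 1709.6 CPM at Day 12 and 1137 and 1134 CPM at Day 14 (log2 fold change -0.52 ± 0.12, adjusted p = 0.108). These were lower in both Day 14 libraries, also without passing. None of 7 cytotrophoblast, 7 invasive-trophoblast and 4 hormone and steroid genes tested passed in edgeR, with medians of -0.23, 0.32 and -0.04. At an unadjusted p under 0.05 there were 1 higher and 2 lower, 3 higher and 1 lower, and 1 lower in these lists. DESeq2 called 3, 4 and none. Over all tested genes 12.5% were higher and 10.8% lower at an unadjusted p under 0.05, and DESeq2 called 6.39% higher and 5.17% lower.

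In endoderm-like cells 11 of 6296 genes (0.175%) passed, 10 higher (0.159%) and 1 lower (0.0159%). With the block 153 (2.43%) passed, 124 higher (1.97%) and 29 lower (0.461%). The 2 with a symbol (0.279% of those tested) were higher. IGFBP4, which binds insulin-like growth factors, had 13.5 and 6.96 CPM at Day 12 and 93.9 and 181 CPM at Day 14 (log2 fold change 3.57 ± 0.46, adjusted p = 0.0407). EMP3, an epithelial membrane protein, had 18.3 and 16.2 CPM at Day 12 and 101 and 83.1 CPM at Day 14 (log2 fold change 2.50 ± 0.36, adjusted p = 0.0433). The days stood apart for both, but replicate 2 held only 27 cells at Day 12 and 13 at Day 14, and IGFBP4 rested on 28 and 3 UMIs and 83 and 37 UMIs. Without mixed-score cells 4 genes passed, and IGFBP4 and EMP3 did not (adjusted p = 0.0698 and 0.0846). Leaving out a library gave 154 and 167 calls without replicate 1 and 2 of Day 12 and 78 and 218 without replicate 1 and 2 of Day 14. Of 12 secretory genes of the endoderm none passed in edgeR, 3 higher and 1 lower had an unadjusted p under 0.05, and DESeq2 called none. Their median was 0.49. Over all tested genes 5.77% were higher and 3.49% lower at an unadjusted p under 0.05, and DESeq2 called 0.476% higher and 0.0953% lower. APOE, an abundant apolipoprotein, had 10367 and 8578 CPM at Day 12 and 15103 and 9129 CPM at Day 14 (log2 fold change 0.45 ± 0.27, adjusted p = 0.666), with overlapping days.

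Genes that were higher in every lineage were counted next. Among 6119 genes tested in all 4 lineages, 19 were higher in both Day 14 libraries by a log2 fold change of at least 1 in every lineage and 7 were lower, counting genes of at least 10 CPM on the higher day. This comparison was a count with no test of its own. The 8 higher genes with a symbol were ANKRD37, ATF3, ERO1A, MT1X, NDRG1, SPAG4, TGFB1 and TMEM45A. The 2 lower genes with a symbol were COX5B and RPL14, whose counts are given as uncertain under the other observations. ERO1A, which oxidises disulfide bonds in the endoplasmic reticulum, had 92.4 and 126 CPM at Day 12 and 227 and 357 CPM at Day 14 in trophoblast-like cells (log2 fold change 1.50 ± 0.31, adjusted p = 0.0958), and MT1X, a metallothionein, had 4.54 and 4.14 CPM at Day 12 and 9.3 and 15.9 CPM at Day 14 there (log2 fold change 1.62 ± 0.32, adjusted p = 0.0922).

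P4HA1, a collagen prolyl hydroxylase induced by hypoxia, had 70.6 and 83.8 CPM at Day 12 and 128 and 136 CPM at Day 14 in trophoblast-like cells (log2 fold change 0.84 ± 0.16, adjusted p = 0.086) and 144 and 274 CPM at Day 12 and 585 and 851 CPM at Day 14 in endoderm-like cells (log2 fold change 1.88 ± 0.37, adjusted p = 0.105, 0.000387 with the block). NDRG1 had 39.5 and 69.6 CPM at Day 12 and 229.8 and 430.3 CPM at Day 14 (log2 fold change 2.72 ± 0.42, adjusted p = 0.067, 5.92e-05 with the block) and ANKRD37 15.4 and 39.5 CPM at Day 12 and 95.1 and 254 CPM at Day 14 (log2 fold change 2.87 ± 0.59, adjusted p = 0.129, 0.00024 with the block) in endoderm-like cells. DDIT3 had 14.9 and 13.9 CPM at Day 12 and 90.6 and 53.8 CPM at Day 14 there (log2 fold change 2.48 ± 0.42, adjusted p = 0.0678, 0.00366 with the block). The days did not overlap for any of these genes, and replicate 2 of Day 14 was the highest library for NDRG1, ANKRD37 and P4HA1 in endoderm-like cells. Of the 10 hypoxia and glycolysis genes tested none passed in edgeR in any lineage, and LDHB, a lactate dehydrogenase subunit, was lower in both Day 14 libraries in endoderm-like, ExE-Mech-like and epiblast-derived-like cells. The medians of the list were 0.70 in trophoblast-like, 0.74 in epiblast-derived-like, 1.08 in ExE-Mech-like and 0.86 in endoderm-like cells.

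**Figure D4:**
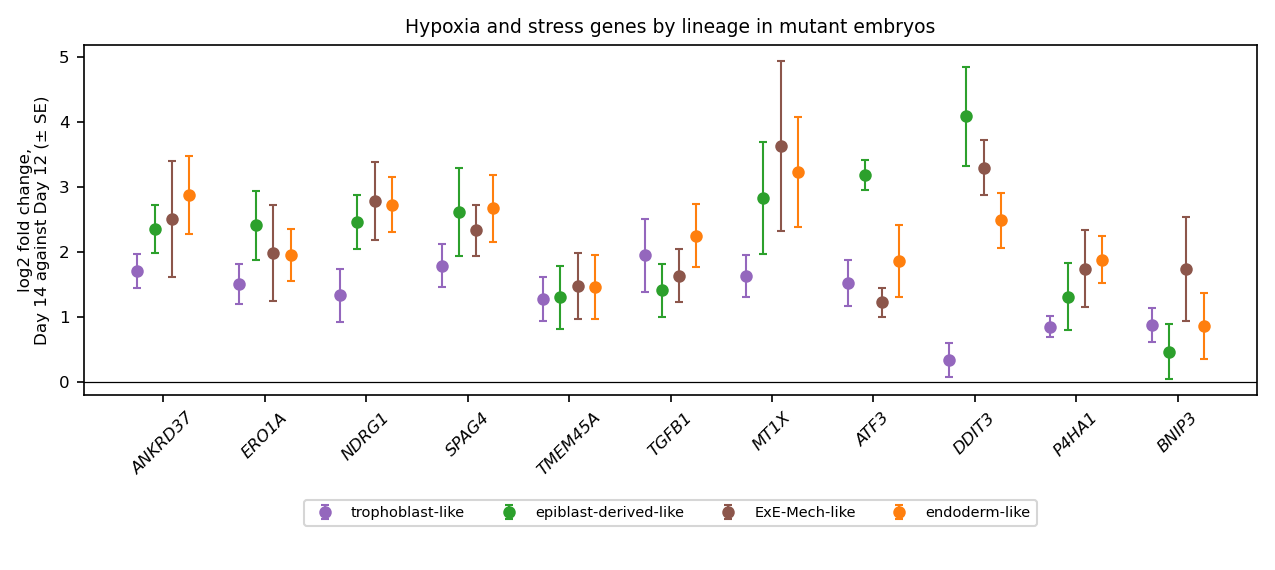
Log2 fold change between Day 14 and Day 12 in mutant embryos (vertical axis, bars ± SE of the fit, n = 2 libraries against 2) for 11 genes in the 4 lineages (colours), picked after their values were seen. Of these, P4HA1 and BNIP3 are on the hypoxia and glycolysis list and ATF3 and DDIT3 on the stress list. Members of these lists that were lower are not shown. The other genes are on neither list and were taken because they were higher in every lineage. That all points lie above 0, and that ANKRD37 and NDRG1 exceed 1 in every lineage, follows from how the genes were picked. DDIT3 is closest to 0 in trophoblast-like cells and above 2 in the other 3.

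**Figure D5:**
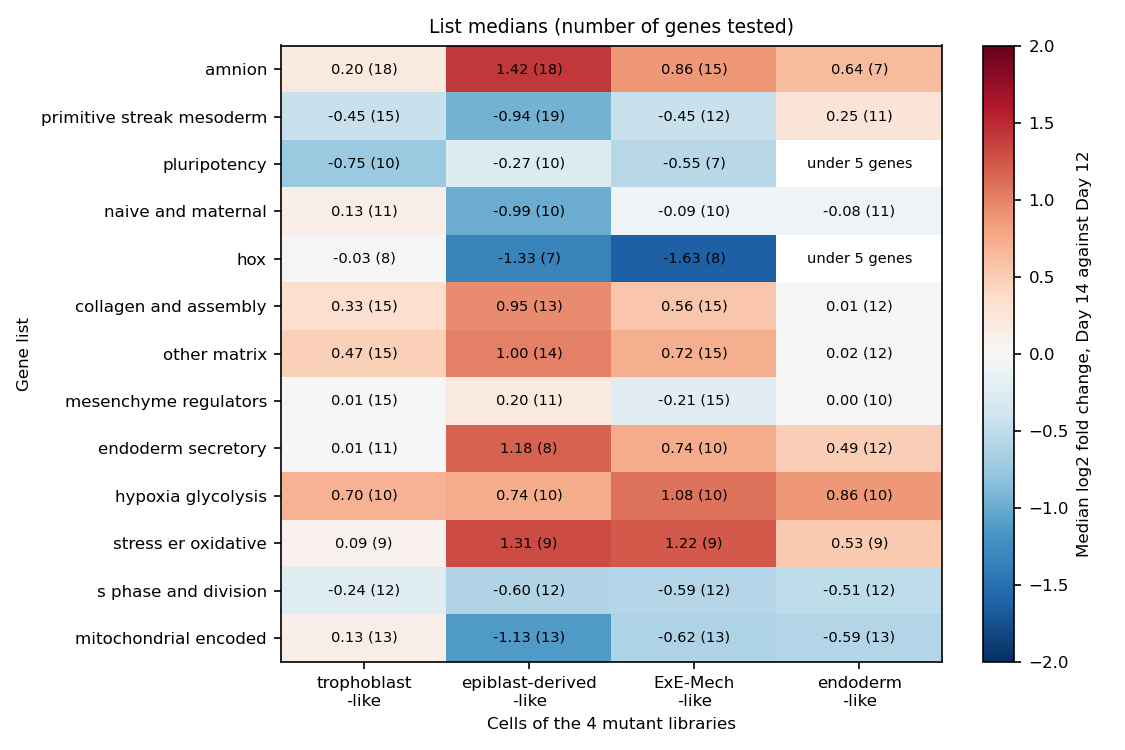
Median log2 fold change between Day 14 and Day 12 in mutant embryos (colour and printed value) of each gene list (rows) in each lineage (columns), with the number of genes tested in brackets and lists with under 5 tested genes left blank. The amnion list is highest in epiblast-derived-like cells (1.42), the HOX list is lowest in ExE-Mech-like cells (-1.63), and the hypoxia and glycolysis list is above 0 in all 4 lineages.

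Whether these differences between the days were particular to mutant embryos was tested as the difference of the day effect between genotypes. No gene passed in trophoblast-like (0 of 14651), epiblast-derived-like (0 of 10962) or ExE-Mech-like cells (0 of 13057) by edgeR's quasi-likelihood test, where 1275, 760 and 1230 genes had an unadjusted p under 0.05 and DESeq2 called 176, 36 and 82. Values of both genotypes are given here for genes named above for their change in the mutants. A smaller change in the wild type can follow from that choice, and none of these genes passed. CCND1 in wild-type epiblast-derived-like cells had 261 and 198 CPM at Day 12 and 173 and 234 CPM at Day 14 (difference of log2 fold changes -1.83 ± 0.38 (SE), adjusted p = 0.594). Replicate 1 of wild-type Day 12 held only 15 such cells. TPM1 in wild-type ExE-Mech-like cells had 631 CPM in the 1 Day 12 library with such cells and 666 and 659 CPM at Day 14 (3.72 ± 0.41, adjusted p = 0.172). LOC102121218 in trophoblast-like cells was nearest to the threshold (3.11 ± 0.29, adjusted p = 0.0769). The median wild-type cell of these days had 24720 to 142180 UMIs, more than in any mutant library of Day 12 or Day 14, and genotype, library size and depth cannot be told apart.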

How the data were processed

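Single cells of cultured cynomolgus embryos were profiled with 10x Chromium 3′ libraries, and per the labels Cell Ranger 3.1.0 was used. The authors aligned reads to Macaca_fascicularis_5.0 with Ensembl annotation, filtered cells on gene number and mitochondrial share, and deposited 2 matrices of 19367 genes. The main matrix holds expected counts, that is, UMI counts per cell from which the authors had subtracted free RNA with SoupX, and it holds whole numbers. The other, with 33539 cells of which 209 are absent from the main matrix, holds the deposited UMI counts without that correction. No value column of unknown sample was left over. The free-RNA estimate was made per library, so it can shift low genes of minor lineages.

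UMIs were summed per library and lineage, with at least 10 cells per sum, and ties or cells without a marker (1, 1, 10 and 1 per mutant library) left out. Doublets were not called here, and cells of mixed lineage scores were removed only in an alternative. The main test was edgeR 4.0.16 (quasi-likelihood F test, TMM, filterByExpr) on the 4 mutant libraries, 2 against 2, with Benjamini-Hochberg adjustment over all tested genes and a threshold of 0.05, 2-sided, and SE was taken as the log2 fold change divided by the root of F. DESeq2 1.42.0 and a fit with the replicate number as a block were alternatives. The labels call the replicate number a batch. Across genes, the difference between replicates at Day 12 and that at Day 14, on log2(CPM + 1), correlated at 0.125 for whole libraries, 0.00287 in trophoblast-like, 0.226 in epiblast-derived-like, 0.377 in ExE-Mech-like and 0.173 in endoderm-like cells. Scripts used R 4.3.3 and Python 3.11.15 and were tested on simulated data. Shares were compared by exact permutation. P-values of the unblocked fits measure the spread between pools or embryos. The block takes out the difference between replicates, so p-values with it measure only how far the day difference varied between replicate numbers. That fit leaves fewer degrees of freedom than the unblocked one. The replicate number also separates pools from single embryos.

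The files give Ensembl gene identifiers. Symbols came from pairs in the study's supplementary tables for 1019 genes, which favours genes the study listed. All list members have a symbol, so in any lineage a list count above the share of all tested genes can follow from this. The members, gene lists and the rule for named genes were chosen with earlier results of these data known. The rule named per comparison the 10 largest rises and falls among called genes with a symbol, at least 10 CPM on the higher day and no overlap between days, and members of the lists as examples. In epiblast-derived-like cells 1 gene that the rule named is not reported here.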

Additional observations from a re-analysis of the deposited data

Results flagged for a closer look

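In 3 genes of epiblast-derived-like cells every mutant library was higher at Day 14 than at Day 12 while every wild-type library was lower. The genes were picked for these directions, and the tests of the difference between genotypes did not pass (edgeR's quasi-likelihood test, adjusted). PLD5 had a mean of 0.245 CPM at Day 12 and 10.6 CPM at Day 14 in mutants, against 0.518 and 0.190 CPM in the wild type (adjusted p = 0.594). Its wild-type values at Day 12, 0.515 and 0.522 CPM, are at or under the 1.55 and 0.522 CPM that 3 UMIs give in those libraries, and replicate 2 of Day 14 had 0 UMIs, which allows up to 1.11 CPM, so no wild-type decrease is shown for PLD5. DDIT3 had 9.23 and 133 CPM in mutants, against 8.18 and 3.07 CPM in the wild type (difference of log2 fold changes 5.31 ± 1.17 (SE), adjusted p = 0.594). MT3 had 186 and 349.9 CPM in mutants, against 313 and 102 CPM in the wild type (2.58 ± 0.40, adjusted p = 0.35). Replicate 1 of wild-type Day 12 held only 15 epiblast-derived-like cells, which limits the comparison for all 3 genes.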

How the results depend on the processing

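Taking the whole library first, then trophoblast-like, epiblast-derived-like, ExE-Mech-like and, last, endoderm-like sums, the main counts of 15, 32, 77, 1 and 11 became 1552, 1636, 366, 855 and 42 with DESeq2, 54, 279, 1229, 484 and 291 with no filter on low counts, 0, 5, 22, 18 and 0 with all libraries of the series in the fit, and 2, 2, 17, 0 and 1 at an adjusted p under 0.01. The replicate block gave 1273, 1270 and 153 in the last 3 lineages, and leaving out mixed-score cells gave 42, 8 and 4 there. Uncorrected UMIs kept all 5 counts within 1.5 times. With a library left out the counts ran from 1 to 20, 0 to 378, 13 to 443, 11 to 65 and 78 to 218, where the lone library of a day is assumed to vary like the other day. For the difference between genotypes in trophoblast-like, epiblast-derived-like and ExE-Mech-like cells the main counts of 0 became 176, 36 and 82 with DESeq2, 2, 217 and 27 with no filter on low counts and 0 to 4, 0 to 1 and 0 to 1 with a library left out, and 1 in trophoblast-like cells with all libraries in the fit. The only wild-type Day 12 library with ExE-Mech-like cells could not be left out. With the replicate block these 3 counts stayed at 0.

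Over 96 named results and 970 alternative values, 701 kept direction and side of the threshold, 74 lost the call, 189 gained it and 6 changed sign. The sign changes were MIXL1 at -0.05 without replicate 2 of Day 12 and -2.25 without replicate 1 of Day 14, MESP1 at 1.57, NANOG at 0.24 and DPPA5 at 0.20 without replicate 1 of Day 12, and APOE at -0.0085 without replicate 1 of Day 14. None of them was called with all 4 libraries. With a library left out their log2 fold changes ran from -2.25 to 1.67, -1.75 to 1.57, -0.54 to 0.24, -0.63 to 0.20 and -0.0085 to 0.79 in that order. The pairing by replicate number ended no call among the named genes other than those given for LOX and DLK1 over whole libraries, and its other changes were gained calls. With a library left out the differences in shares ran from -3.90 to -2.26 points in trophoblast-like, -8.62 to -1.77 in epiblast-derived-like, 3.66 to 13.9 in ExE-Mech-like and -1.46 to 0.318 in endoderm-like cells, where the direction turned without replicate 1 of Day 12. Scaling by total UMIs moved the median of all genes by at most 0.11, to -0.11, in endoderm-like cells. Endoderm-like sums rest on 13 to 135 cells, where the cause of changed counts was not tested.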

Other observations

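In trophoblast-like cells 1 of 18 amnion list members rose, CA12, against 0.177% of all tested genes. KRT8, KRT18 and CDH3 were lower and CA12 and SPNS2 higher in both Day 14 libraries, and the median of the list was 0.20, beside 0.02 over all tested genes. In ExE-Mech-like cells none of 15 members passed in edgeR, 5 were higher at an unadjusted p under 0.05 against 12.1% of all tested genes, 7 were higher in both Day 14 libraries against 25.8%, and the median was 0.86. None of 9 blood and endothelial genes tested in trophoblast-like or ExE-Mech-like cells passed in edgeR, with medians of 0.26 and 0.15, and at an unadjusted p under 0.05 there were 2 higher and 1 lower and 1 higher and 1 lower, against 12.5% higher and 10.8% lower and 12.1% higher and 7.03% lower of all tested genes. None of 9 stress genes passed in trophoblast-like cells, where 3 were higher and 1 lower at an unadjusted p under 0.05, DESeq2 called 3 and the median was 0.09, against medians of 1.31 and 1.22 in epiblast-derived-like and ExE-Mech-like cells. Whether these medians differ between lineages was not tested.

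COX5B, a subunit of cytochrome c oxidase, and RPL14, a ribosomal protein, were at or near 0 in replicate 2 of Day 14 in trophoblast-like cells and not in the other mutant libraries. COX5B had 96.5 and 82.6 CPM at Day 12 and 49.1 and 0.921 CPM at Day 14 (log2 fold change -1.83 ± 1.43, adjusted p = 0.483) and RPL14 had 98.5 and 108 CPM at Day 12 and 44.4 and 0.133 CPM at Day 14 (log2 fold change -2.20 ± 1.75, adjusted p = 0.488). In wild-type trophoblast-like cells COX5B had 0.827 and 70.5 CPM at Day 12 and 255 and 31.6 CPM at Day 14, and RPL14 had 79.2 and 0.107 CPM at Day 12 and 0.204 and 0.116 CPM at Day 14. Whether reads shared with similar gene copies bear on these values was not tested, and the counts are given as uncertain.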
